A study of Mus musculus with 8 samples.

Results

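*Il33* and the genes of both subunits of its receptor, *Il1rl1* and *Il1rap*, were followed in the brains of newborn mice whose mothers drank water with cadmium chloride (Cd). The members were chosen by name, 3 genes of the 49585 in the count table, and *Il33* was of interest because its difference between the doses in these same libraries was already known. The values of 50 ppm against 0 ppm are therefore given for the 3 genes as a description, without a test. RNA-seq of poly(A) RNA was made from whole brains of female B × C pups, the F1 of a C57BL/6J mother and a CAST/EiJ father, collected within a day of birth. The dams received 0 ppm (n = 4 pups) or 50 ppm CdCl2 (n = 4 pups) in drinking water before and throughout pregnancy, and each pup came from a different litter. All groups shared the cross, sex, age and tissue, and the RNA came from a small portion of each pulverized brain.

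IL-33 is a cytokine of the IL-1 family that is stored in the nucleus and released when a cell is damaged. It is read by a receptor made of ST2, the product of *Il1rl1*, which binds the cytokine, and of the accessory protein encoded by *Il1rap*, which other IL-1 family receptors also use. In the rodent brain and spinal cord, IL-33 is known mainly from astrocytes and oligodendrocytes, and ST2 is best known from microglia, mast cells and regulatory T cells.

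*Il33* (ENSMUSG00000024810) lies on the plus strand of chromosome 19, at chr19:29925114-29960718 of GRCm38, and its annotated exons cover 2886 bp. The annotation lists 5 transcripts of *Il33*, all protein coding, which begin at several places. The 250 bases before each of its RefSeq starts (GRCm38.p6, plus strand) are shown because the gene-level counts cannot tell which start was used. The capitals mark the letters TATAAA. The windows are chr19:29924863-29925112 and chr19:29945540-29945789.
Il33 first start: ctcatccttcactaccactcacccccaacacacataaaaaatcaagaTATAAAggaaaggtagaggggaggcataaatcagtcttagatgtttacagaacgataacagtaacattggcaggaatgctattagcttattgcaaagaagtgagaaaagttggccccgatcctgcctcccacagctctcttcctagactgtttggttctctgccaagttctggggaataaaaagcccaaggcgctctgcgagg
Il33 second start: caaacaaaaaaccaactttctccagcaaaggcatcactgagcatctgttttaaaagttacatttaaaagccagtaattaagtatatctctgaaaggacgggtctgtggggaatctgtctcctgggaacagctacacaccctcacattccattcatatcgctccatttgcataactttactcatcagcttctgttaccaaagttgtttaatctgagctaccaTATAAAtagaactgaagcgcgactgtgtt

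In the window of the second *Il33* start the match began 29 bases before the start, and in that of the first it began 203 bases before it. TATAAA on the gene strand was present in 7.59% of all 32851 RefSeq windows of this length. Both *Il33* windows held 4 CpG dinucleotides, against a median of 6 over all windows.

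*Il1rl1* (ENSMUSG00000026069) lies on the plus strand at chr1:40429570-40465415, with 6894 bp of exon and 5 protein-coding transcripts. Its transcripts include a short form that gives soluble ST2, which acts as a decoy, and longer forms that give the membrane receptor. Gene-level counts pool them. The windows before the distal and the proximal start, chr1:40429320-40429569 and chr1:40439379-40439628, are shown for the contrast between them, with matches to the GATA motif (the letters GATA, preceded by A or T and followed by A or G, on either strand) in capitals.
Il1rl1 first start: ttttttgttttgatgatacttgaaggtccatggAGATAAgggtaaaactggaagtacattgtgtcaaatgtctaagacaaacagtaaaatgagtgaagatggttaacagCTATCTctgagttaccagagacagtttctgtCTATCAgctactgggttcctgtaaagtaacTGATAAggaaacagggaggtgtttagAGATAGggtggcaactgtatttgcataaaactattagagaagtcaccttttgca
Il1rl1 second start: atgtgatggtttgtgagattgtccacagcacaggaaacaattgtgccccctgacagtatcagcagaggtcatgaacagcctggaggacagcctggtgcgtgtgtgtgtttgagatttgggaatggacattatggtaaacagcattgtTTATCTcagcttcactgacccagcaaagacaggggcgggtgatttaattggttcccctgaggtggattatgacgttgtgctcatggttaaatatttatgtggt

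The first *Il1rl1* window held 5 GATA matches and no CpG, and the second held 1 GATA match and 3 CpG. At least 1 GATA match was found in 26.5% of all windows, and 5 or more in 0.0426% of them.

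*Il1rap* (ENSMUSG00000022514) lies on the plus strand at chr16:26581704-26730117. Its exons cover 11360 bp, of which 4.86% overlaps exons of *Gm20319* on the opposite strand. Of its 7 transcripts, 4 are protein coding, and they include soluble and membrane forms. The window before its start, chr16:26581455-26581704, is shown because it differs from those of the other members in base composition. It is in lower case throughout, since it held no match to a motif searched.
Il1rap start: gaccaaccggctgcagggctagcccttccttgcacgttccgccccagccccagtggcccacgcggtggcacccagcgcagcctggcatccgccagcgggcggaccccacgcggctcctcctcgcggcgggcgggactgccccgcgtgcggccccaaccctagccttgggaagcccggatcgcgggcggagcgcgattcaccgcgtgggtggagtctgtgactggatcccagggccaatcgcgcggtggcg

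The *Il1rap* window was 74.4% G and C with 30 CpG, against 37.6% to 46.4% in the windows of the other members and a median of 52.4% over all windows. None of the 5 windows held the core of the metal response element (TGC, then A or G, then CNC, on either strand), which was present in 21.4% of all windows, or the AP-1 motif (TGACTCA on either strand), present in 4.46%. These are matches of letters in 250 bases, and nothing was measured here about binding.

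Between 22916434 and 30708087 reads per library were counted on genes in the alignment to the B (C57BL/6J) genome. Levels are given as CPM, the usual depth-scaled read count, with library sizes after TMM normalization. All 3 members passed the filter on low counts, as did 23113 genes of the table. Across those genes, edgeR's quasi-likelihood test called 4 genes at an adjusted p under 0.05 (0.0173%), all higher at 50 ppm. At an unadjusted p under 0.05 stood 866 genes (3.75%). Of the 3 members, 0 were called by edgeR and 2 (*Il33* and *Il1rap*) had an unadjusted p under 0.05 with it. DESeq2 called 1 member, *Il33*, in the same counts, where it called 22 of the 23113 genes. Since *Il33* was chosen on this contrast, nothing is read from those counts.

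*Il33* was counted with 110, 87, 150 and 134 reads in the 4 brains at 0 ppm and with 207, 212, 205 and 220 reads in the 4 brains at 50 ppm. These corresponded to 3.76, 3.24, 4.90 and 5.19 CPM at 0 ppm and to 7.26, 7.44, 7.31 and 9.71 CPM at 50 ppm. Every brain at 50 ppm lay above every brain at 0 ppm, and 3 of the 4 exposed brains were close to one another, with replicate 4 higher. Among all genes tested, 275 (1.19%) had every 50 ppm library above every 0 ppm library, and 209 (0.904%) had every one below.

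Control brains averaged 4.27 ± 0.926 CPM of *Il33* (SD, n = 4), and exposed brains averaged 7.93 ± 1.18 CPM (SD, n = 4), which is 1.86 times as much. On the log2 scale the difference was 0.89 with a standard error of 0.17. Without the exposed brain of the highest level, replicate 4, the log2 fold change was 0.78. The spread between brains exceeded counting error, with a coefficient of variation of 21.7% at 0 ppm and 14.9% at 50 ppm where counting alone gives 9.12% and 6.88%. In a bulk library, more *Il33* RNA per cell and more cells that express *Il33* cannot be told apart.

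The same reads were also aligned to the C (CAST/EiJ) genome, that of the father's strain. There *Il33* had 106, 80, 149 and 131 reads at 0 ppm and 203, 208, 193 and 215 reads at 50 ppm. The order of the doses was as for the B genome, and the difference on the log2 scale was 0.90 (standard error 0.18). Per library the C genome gave between 0.920 and 0.993 times as many *Il33* reads as the B genome. Since both counts come from the same reads, this is no independent measurement. The identifiers of *Il1rl1* and *Il1rap* in that alignment were not paired with names in the sources used here.

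*Il1rl1*, which encodes the subunit that binds IL-33, was the scarcest of the members. It had 21, 30, 26 and 13 reads at 0 ppm and 19, 15, 19 and 25 reads at 50 ppm, or 0.717, 1.12, 0.849 and 0.503 CPM against 0.667, 0.527, 0.678 and 1.10 CPM. The groups overlapped throughout, and both the highest and the lowest brain were controls. Control brains averaged 0.796 ± 0.256 CPM of *Il1rl1* (SD, n = 4) and exposed brains 0.744 ± 0.249 CPM (SD, n = 4). The log2 fold change was -0.12, smaller than its standard error of 0.32. The sign turned when 0 ppm replicate 2 (0.08) or 50 ppm replicate 2 (0.02) was left out. The coefficient of variation was 32.2% and 33.5%, where counting error alone gives 21.1% and 22.6%.

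*Il1rap*, which encodes the shared accessory chain, had the most reads. They numbered 498, 407, 466 and 423 at 0 ppm and 565, 481, 553 and 445 at 50 ppm, or 17.0, 15.1, 15.2 and 16.4 CPM against 19.8, 16.9, 19.7 and 19.6 CPM. The 3 exposed brains of the highest level lay above all controls, and 50 ppm replicate 2 lay just below 0 ppm replicate 1, so the groups overlapped through that pair alone. The means were 15.9 ± 0.908 CPM (SD, n = 4) and 19.0 ± 1.42 CPM (SD, n = 4), a ratio of 1.19. The log2 fold change was 0.25 with a standard error of 0.10, and 0.31 without 50 ppm replicate 2. Reads of *Gm20319* and of the overlapping part of *Il1rap* could be told apart only if strand was used in counting, which is not given in the sources used here.

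**Figure D1:**
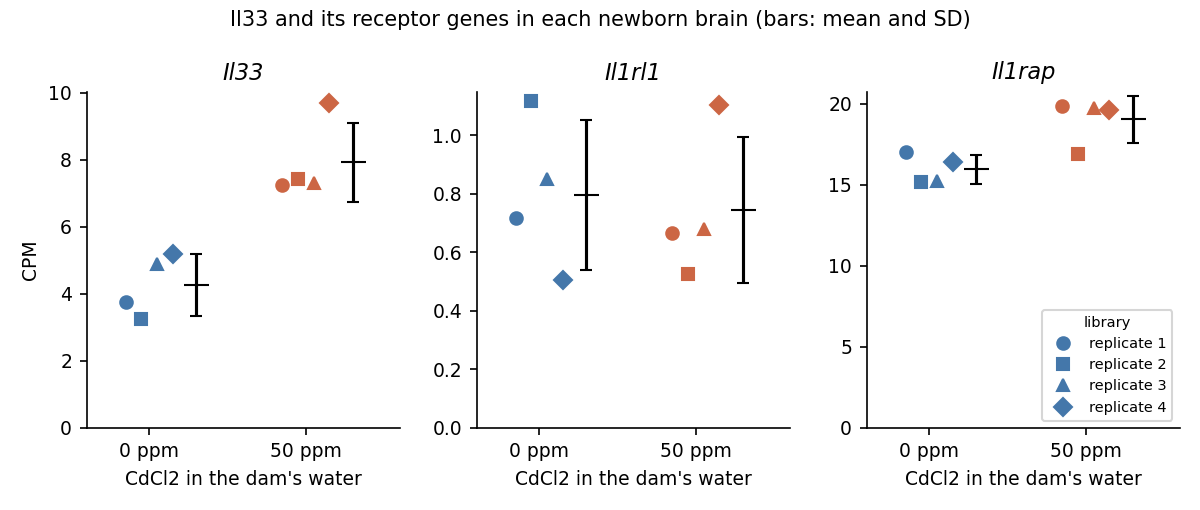
CPM of *Il33*, *Il1rl1* and *Il1rap* (vertical axes, each from 0) in each of the 4 brains at 0 ppm and 4 at 50 ppm, with the mean and SD beside the points and a symbol for each replicate number. The exposed brains sit between 7.26 and 9.71 CPM for *Il33*, above all controls, while the groups overlap for *Il1rl1* throughout and for *Il1rap* through 1 exposed brain.

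Levels of different genes were compared per kilobase of exon. *Il33* stood at 1.48 CPM per kb at 0 ppm and 2.75 CPM per kb at 50 ppm, *Il1rap* at 1.40 and 1.67, and *Il1rl1* at 0.116 and 0.108. The ratio of *Il33* to *Il1rap* on this scale was 0.869, 0.841, 1.27 and 1.25 at 0 ppm, below every exposed brain, where it was 1.44, 1.73, 1.46 and 1.95. The ratio of *Il33* to *Il1rl1* ranged from 6.93 to 24.6 in control brains and from 21.0 to 33.8 in exposed brains, and these ranges overlapped. Both ratios contain the level of *Il33* on which the gene was chosen, and they are given as a description.

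Among the 15 IL-1 family ligand and receptor genes that passed the filter, *Il33* took place 4 per length at 0 ppm and place 2 at 50 ppm. *Il18*, another IL-1 family cytokine, was the highest at both doses, with 7.0 and 6.44 CPM per kb, and its libraries did not overlap those of the gene in the next place. At 0 ppm *Il33* did not differ beyond its spread from its neighbours in this order, *Il1rapl2* above and *Il1rap* below. At 50 ppm the range of *Il33* overlapped that of *Il1rapl1*, an accessory-like receptor of neurons, in the next place. *Il1rap* held place 5 at both doses, apart from *Il1r1*, the IL-1 receptor, below it. *Il1rl1* held place 9 at both doses, within the spread of *Il1rl2* above it and of the next gene below. These levels rest on the union of annotated exons, so a gene with long exons that are little used in brain is placed too low.

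**Figure D2:**
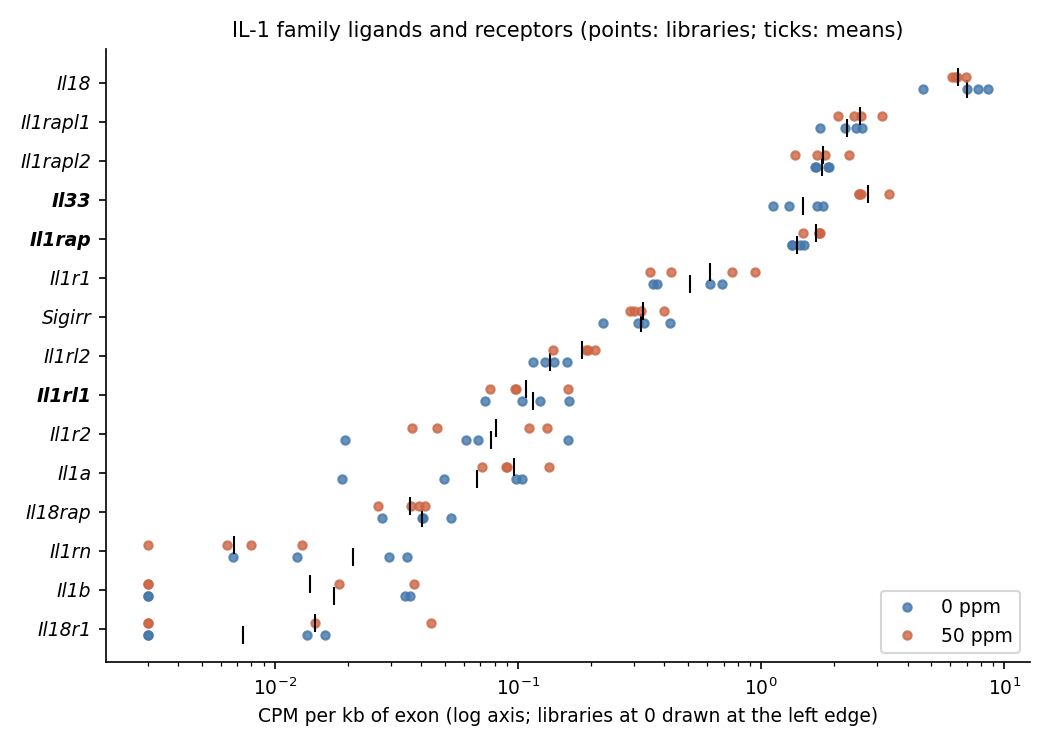
CPM per kb of exon (horizontal log axis) of the 15 IL-1 family ligand and receptor genes tested, with a point for each library, black ticks for the mean of each dose, and names of *Il33*, *Il1rl1* and *Il1rap* in bold. The order is that of the 0 ppm means, from *Il18* at 7.0 down, and *Il33* is separated between the doses while *Il1rl1* lies near 0.1 at both.

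Of 59 other genes of the IL-33 pathway in 5 lists, 48 were tested and 7 were listed at 0 in all libraries. By edgeR 0 of the 48 were called higher or lower at an adjusted p under 0.05, and DESeq2 also called 0. Its filtering of low counts left *Ccl2*, described below, without an adjusted p, so DESeq2 could not call that gene. At an unadjusted p under 0.05, 1 gene was higher and 0 were lower, against the background of 3.75% in both directions. Their median log2 fold change was 0.04, against -0.00 over all genes tested.

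The other ligands had 4 of 9 genes tested. *Il18* had 212, 128, 270 and 208 reads at 0 ppm and 179, 185, 201 and 150 at 50 ppm, and its groups overlapped (log2 fold change -0.12, standard error 0.17). *Il1a* had at most 6 reads in a library, *Il1b*, a main inflammatory cytokine, at most 2, and *Il1rn*, which encodes the antagonist of the IL-1 receptor, at most 5. All 8 other receptors were tested, with a median log2 fold change of 0.12, and 0 of them had an unadjusted p under 0.05. The value was positive in 7 of the 8, and in 11318 of all 23113 genes tested. *Il1rl2*, the receptor of IL-36 and a neighbour of *Il1rl1* on chromosome 1, differed by 0.42 on the log2 scale (standard error 0.24), and *Sigirr*, an inhibitory member of the family, by 0.03 (standard error 0.26).

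The genes that carry the signal inside the cell had 18 of 19 tested, with log2 fold changes between -0.04 and 0.20. The highest was *Irak2*, a kinase-like adaptor (0.20, standard error 0.14), and the lowest *Mapk8*, which encodes the kinase JNK1 (-0.04, standard error 0.08). *Myd88*, the adaptor of the receptor, was listed at 0 in all libraries. *Tubb3*, a tubulin of neurons, was also listed at 0 in these brains, so a 0 in this table is not read as absence of expression. Of the 7 genes of proteases known to cut IL-33, all were tested and 5 had a positive log2 fold change (median 0.05). One of these was *Prtn3*, which encodes proteinase 3 of neutrophils (0.05, standard error 0.19). Of its exons, 9.18% overlaps *Plppr3* on the opposite strand, so the limit on strand given for *Il1rap* applies to it too. The lowest was *Elane* (-2.04, standard error 1.13), with at most 6 reads in a library.

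Among 16 cytokine and effector genes known to respond to IL-33, 11 were tested, and *Il9*, *Il13* and *Csf2* were listed at 0 in all libraries. *Ccl2*, a chemokine that attracts monocytes, was the gene with an unadjusted p under 0.05. It had 2, 0, 0 and 1 reads at 0 ppm and 7, 10, 5 and 6 reads at 50 ppm. Every exposed brain lay above every control, as was so for 275 of all genes tested (1.19%). The 28 reads against 3 gave a ratio of 9.76, with an exact 95% interval of 3.02 to 50.2 that covers counting error alone. *Ccl2* is named because its p was the lowest of the 48 pathway genes tested, and the interval takes no account of that choice. The adjusted p for *Ccl2* was 0.452 with edgeR and ranged from 0.152 to 1.00 over the alternatives that gave one, so it was not called.

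**Figure D3:**
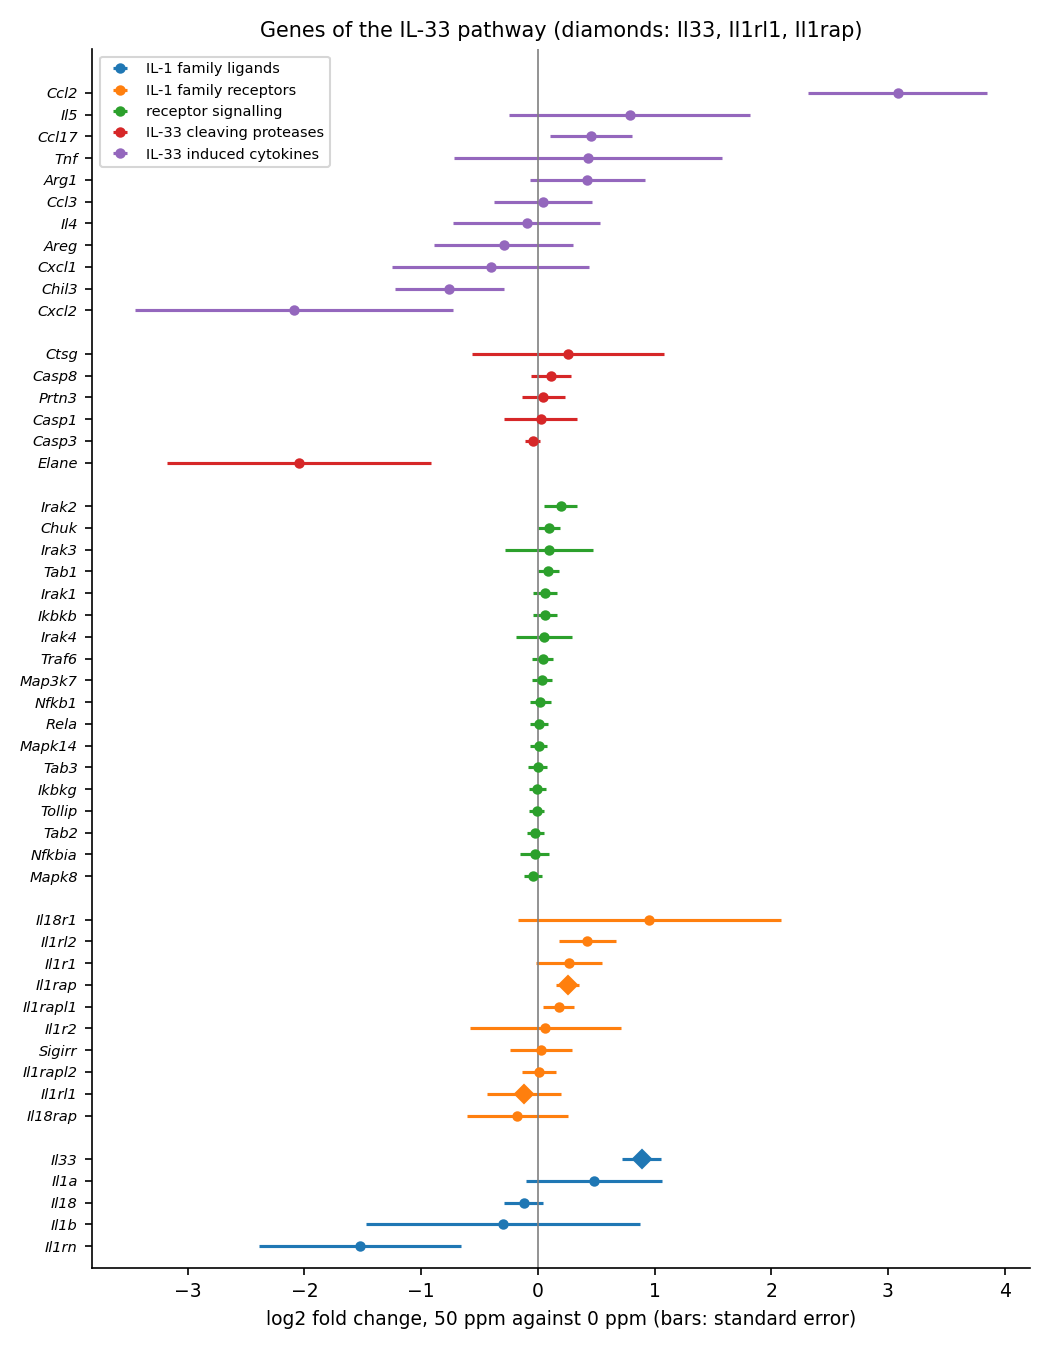
Log2 fold change of 50 ppm against 0 ppm (horizontal axis, bars for the standard error) of the tested genes of the 5 pathway lists, except 1 gene that is not reported here, coloured by list, with *Il33*, *Il1rl1* and *Il1rap* as diamonds. Genes with few reads have long bars, the signalling genes lie between -0.04 and 0.20, and *Ccl2* lies at 3.08 on reads of 10 or fewer per library.

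The nearest tested genes beside *Il33* on chromosome 19 were *Ranbp6*, 112140 bp away, and *Uhrf2*, 69795 bp away. Their log2 fold changes were -0.05 (standard error 0.08) and -0.03 (standard error 0.08). All 6 tested genes beside *Il33*, 3 on each side in order of gene start, had overlapping groups. *Il1rl1* sits in a cluster of IL-1 family receptor genes, with *Il18r1* beginning 137 bp beyond it, and *Il18r1* had at most 6 reads in a library. Of the 6 tested genes beside *Il1rl1* in that order, *Gm16894* had every exposed brain above every control (log2 fold change 0.84, standard error 0.32). The same held for 1.19% of all genes tested. *Il1r2* was not among the 6, though it ends nearer to *Il1rl1* than *Gm16894*, and its groups overlapped (log2 fold change 0.06, standard error 0.65). The 6 beside *Il1rap* all had overlapping groups.

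Over the 8 libraries, the genes whose log2 CPM was most correlated with that of *Il33* among 14601 genes of at least 1 CPM were *Slc24a2* (r = 0.964), *Oxr1* (r = 0.964), *Kcnj16* (r = 0.963), *Ttc7b* (r = 0.954) and *Atp1b2* (r = 0.932). *Il1rap* took place 248 (r = 0.780). These correlations share the difference between the doses. The study had chosen *Kcnj16*, as well as *Il33*, on these samples. For deviations from the dose means the highest were *A230006K03Rik* (r = 0.986), *Junos* (r = 0.978), *Gm4876* (r = 0.974), *Pcsk1* (r = 0.971) and *Hrk* (r = 0.966), none of them among the genes above, and *Il1rap* had r = 0.158. The values are the highest of many over 8 libraries and describe these libraries alone. *Il1rl1* was under the minimum of 1 CPM.

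Whole brain is a mixture of cells, so summed levels of marker genes are given beside *Il33*. The summed level of 15 oligodendrocyte markers was 220 to 277 CPM at 0 ppm and 282 to 360 CPM at 50 ppm, with no overlap and a ratio of means of 1.35. In this list 1 gene was called (*Bcas1*), against 0.0173% of all genes tested, and none was at 0 in all libraries. At an unadjusted p under 0.05, 10 of the 15 were higher, where 534 of all 23113 genes (2.31%) were higher and 332 (1.44%) lower. The study had chosen 5 of the 15 genes on these samples (*Bcas1*, *Enpp6*, *Mag*, *Mbp* and *Cnp*), and without them the ratio was 1.23. All 5 are among the 10 genes higher, and *Bcas1* is the gene called, so these counts are not independent of that choice. The 12 astrocyte markers summed to 1097 to 1389 CPM at 0 ppm and to 1378 to 1653 CPM at 50 ppm (ratio 1.21), with 7 genes higher at an unadjusted p under 0.05 (2.31% of all genes), none called and none at 0. Their part in the level of *Il33* was not tested.

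Markers of hindbrain and spinal cord summed to 4.68, 15.7, 56.7 and 67.8 CPM at 0 ppm and to 199, 92.0, 62.7 and 83.7 CPM at 50 ppm. Of the 12 genes tested in this list of 14, 3 were called, against 0.0173% of all genes tested, and 11 were higher at an unadjusted p under 0.05, against 2.31%. In the same list, *Hoxa3* and *Hoxa4* were listed at 0. The 10 forebrain markers summed to 815 to 1267 CPM and 875 to 1035 CPM, with 5 genes lower at an unadjusted p under 0.05 (1.44% of all genes), none called and none at 0. The study had chosen *Hoxb8* of the first list and *Dlx1* of the second on these samples. The counts of both lists are therefore not independent of that choice. Without these genes the ratios of means were 2.91 in place of 3.02 for hindbrain and spinal cord and 0.904 in place of 0.891 for forebrain. The part of the regional composition of the tissue in the level of *Il33* was not tested.

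The meningeal fibroblast list had 9 genes, 3 of them higher at an unadjusted p under 0.05, against 2.31% of all genes tested. It holds 2 genes that the study chose on these samples, *Aldh1a2* and *Ptgds*. The list summed to 724 to 884 CPM at 0 ppm and 901 to 1073 CPM at 50 ppm. Without those 2 genes it summed to 467 to 653 and 546 to 641 CPM, which overlapped. Microglia (10 genes, 3 higher, against the same 2.31%) summed to 122 to 155 and 143 to 179 CPM. Sums overlapped with ratios of means from 1.01 to 1.09 for oligodendrocyte progenitors (454 to 498 and 463 to 527 CPM), endothelium (297 to 341 and 301 to 356 CPM), neurons (5841 to 6711 and 6263 to 6671 CPM) and the immune cells that bear ST2 (14.6 to 16.7 and 13.6 to 20.6 CPM). For the last, *Cpa3*, a mast cell protease, had 113 to 184 reads per library and *Foxp3*, which marks regulatory T cells, 7 to 12. That list also holds *Ptprc*, a general marker of leukocytes, so its sum is not a level of ST2-bearing cells alone. At an unadjusted p under 0.05, 1 progenitor gene and 1 neuronal gene were higher and no endothelial or immune gene was. No gene of these 6 lists was called, and apart from *Tubb3* none was at 0 in all libraries.

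**Figure D4:**
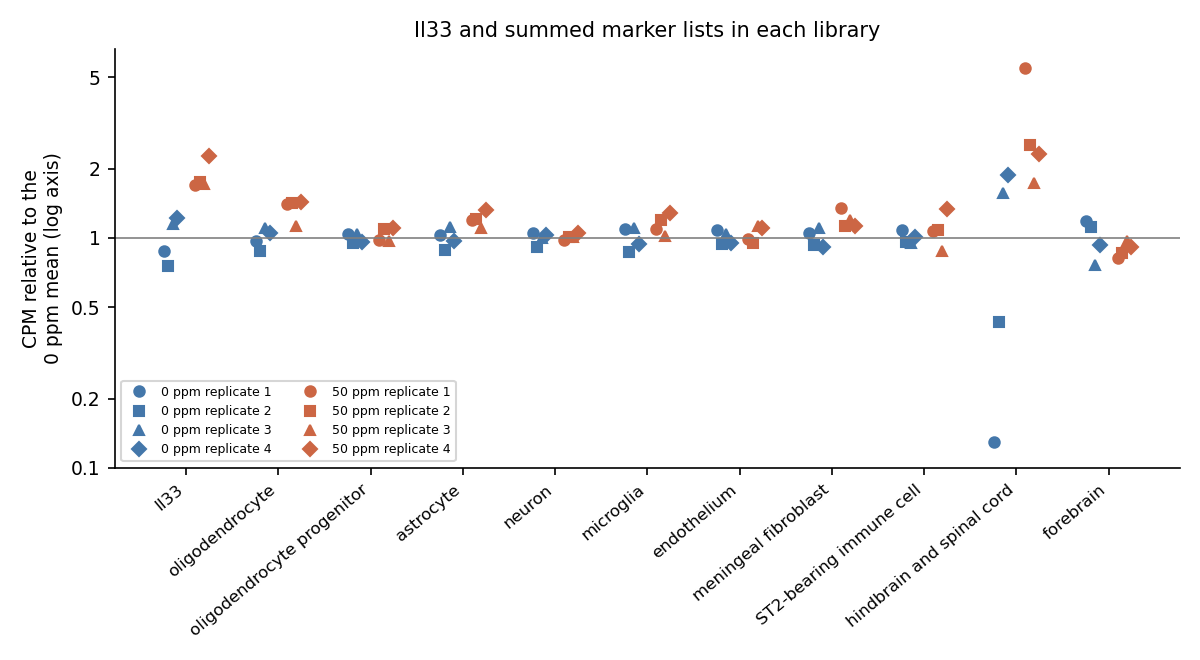
Level of *Il33* and of each summed marker list in each library, divided by the mean of the 0 ppm libraries (vertical log axis), with blue for 0 ppm, orange for 50 ppm and a symbol for each replicate number. Exposed and control libraries are apart for *Il33* and for the oligodendrocyte and meningeal lists, and the hindbrain and spinal cord list spreads most, from 4.68 to 199 CPM. The meningeal sums overlap when the 2 genes that the study chose on these samples are left out.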

How the data were processed

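RNA-seq libraries (poly(A) RNA, directional kit, single-end reads) were made from 8 whole brains. The authors trimmed the reads, aligned them with STAR to the C57BL/6J (mm38, Ensembl) and CAST/EiJ genomes and assigned them to genes with htseq-count. The authors deposited raw counts without normalization. Tool versions and the strand setting of counting are not given in the sources used here.

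The members and the gene lists were chosen with earlier results of these data known. Of 49585 identifiers, 49326 were matched to names, and exon lengths and positions came from GENCODE M21 (GRCm38). Promoter sequences came from RefSeq (GRCm38.p6). Identifiers of the C genome were paired with names for 120 genes, which include *Il33*. Genes at 0 in more than 2/3 of the libraries were dropped. Counts were fitted with edgeR 4.0.16 (TMM, quasi-likelihood test, dose as the only term) in R 4.3.3, with Benjamini-Hochberg adjustment over 23113 genes. The standard error is the absolute log2 fold change divided by the square root of F. P-values measure the spread between pups of different litters. The named genes were the members, the genes of the lists, the 5 most like *Il33* by each correlation (log2 CPM, prior count 2) and 3 tested neighbours on each side. Replicates of a dose differed beyond counting error, since chi-square over its degrees of freedom lay between 8.67 and 21.1 in the 12 pairs within a dose. A count of 3 reads corresponds to 0.0980 to 0.132 CPM.

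The alternatives were DESeq2 1.42.0 (its independent filtering set to the 0.05 threshold), its size factors in the edgeR fit, no filter, at least 10 counts in 4 libraries, the alignment to the C genome, and leaving out 1 library at a time. After the data were seen, DESeq2's default filtering target of 0.1 was added, following a count in an earlier account of these data, as were marker lists without the genes the study chose on these samples. The values of 1 gene of the protease list are not reported here, though the counts of that list include it. The code was tested on simulated data. Plots used Python 3.11.15 and matplotlib 3.10.9.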

Additional observations from a re-analysis of the deposited data

Results flagged for a closer look

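In each dose group, 13 measures (the 3 members and 10 marker lists) were examined for a brain far from the other 3, which makes 26 groups. Chance marks about 1 in 20 such groups, and 3 were marked. *Il33* in 50 ppm replicate 4 was 9.71 CPM, where the nearest exposed brain had 7.44 CPM. *Il1rap* in 50 ppm replicate 2 was 16.9 CPM, where the nearest exposed brain had 19.6 CPM. The summed oligodendrocyte markers in 50 ppm replicate 3 were 282 CPM, where the nearest exposed brain had 351 CPM.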

How the results depend on the processing

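The log2 fold change of *Il33* was positive in all 14 alternatives, from 0.78 to 0.99, and that of *Il1rap* in all 13, from 0.23 to 0.31. That of *Il1rl1* ranged from -0.35 to 0.08 and was positive in 2 of 13. None moved by more than the spread between replicates. The adjusted p of *Il33*, printed here as a description, was 0.169 with edgeR, 9.1e-04 with DESeq2, 0.0011 with DESeq2's default filtering target and 0.0047 without the filter, and 0.055 to 0.820 in the others.

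The number of genes called over the whole table, 4, became 22 with DESeq2 filtered for the 0.05 threshold, the setting run first, and 18 with its default target, which was added after the data and an earlier count were seen. It was 52 without the filter, 2 with at least 10 counts in 4 libraries and 2 in the C genome. Leaving out each library gave 2 to 20 genes. It was 20 without 0 ppm replicate 3, 8 without 50 ppm replicate 3, and 2 without 0 ppm replicate 1, 0 ppm replicate 2 or 50 ppm replicate 4. The cause was not tested. Called pathway genes stayed at 0. Those higher at an unadjusted p under 0.05, 1, became 0 with at least 10 counts in 4 libraries, which leaves *Ccl2* untested, and were 1 to 2 when libraries were left out (2 without 0 ppm replicate 2). Those lower were 0 to 1 (1 without 0 ppm replicate 1). The summed meningeal list had a ratio of 1.10 in place of 1.20 without the study's genes.

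No paired analysis was possible because the labels give no number that ties brains of the doses together, and replicate numbers here only name the libraries. Of the members, *Il1rl1* has the fewest reads, 13 to 30 per library, and so the largest counting error.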
